A study of Homo sapiens with 14 samples.

Results

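Splicing of the genes that encode the proteasome was compared between HEK293T cells with unmutated SF3B1 (K700K, WT) and cells with SF3B1 K700E (MT). Splice events were taken as members when their gene symbol started with PSMA to PSMG and a digit and when the mean of the WT and MT junction reads was at least 10. This gave 439 events in 44 genes, of 114349 events in the table, and another 32 events with these symbols lay below the read minimum. All event types entered: cassette exons, mutually exclusive exons, alternative 3′ and 5′ splice sites, and retained introns.

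RNA-Seq was performed on 3 WT and 3 MT libraries of HEK293T, an immortalized human embryonic kidney line. The MT line was an isogenic line with K700E at the endogenous SF3B1 locus, no treatment is given in the labels, and whether it came from 1 clone is not given in the sources used here. Neither the labels nor Methods state that libraries of 1 genotype came from separate cultures, so all p-values measure the spread between these libraries, which may be technical. The measure was the inclusion level, a share between both forms of an event, corrected for the length of each form. It is the share of the form that holds the exon, intron or exon extension. Transcripts of the gene that use neither form do not enter the level. Each event lists 6 MT values, and columns are given for only 3 of them, those at listed positions 1, 2 and 6. It is not settled that these 3 are the MT samples of the study, and MT 1, MT 2 and MT 3 denote the order of these columns only. The authors averaged MT reads over the 6 listed values and WT reads over 3 libraries. The table holds no expression levels, so neither the K700E allele nor markers of the cell line were examined.

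The proteasome degrades proteins that carry ubiquitin chains. Its barrel-shaped 20S core consists of outer rings of alpha subunits and inner rings of beta subunits, some of which are the proteases, and the 19S cap binds ubiquitinated proteins, unfolds them with a ring of ATPases and feeds them into the core. SF3B1 is a component of the U2 snRNP, which recognizes the branch point upstream of each 3′ splice site. K700E, a recurrent mutation in leukemia and myelodysplasia, is known for the use of cryptic 3′ splice sites a short distance upstream of the regular ones.

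The sequences of the close alternative 3′ sites are shown first, because this is the kind of event for which K700E is known. All are given 5′ to 3′ on the strand of the gene in hg38. Each run starts 40 bases before the end of the upstream AG and ends 10 bases after that of the downstream AG, and capitals mark the bases between both sites, which are exonic only when the upstream site is used.
PSMA6, chr14:35312823-35312890, plus strand: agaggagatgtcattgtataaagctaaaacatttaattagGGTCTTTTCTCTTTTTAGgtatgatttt
PSMC5, chr17:63830980-63831045, plus strand: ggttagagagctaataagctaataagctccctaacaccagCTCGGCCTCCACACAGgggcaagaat
PSMB10, chr16:67934662-67934734, minus strand: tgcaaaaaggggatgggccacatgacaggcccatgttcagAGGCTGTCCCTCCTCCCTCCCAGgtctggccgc
PSMA3, chr14:58260908-58260978, plus strand: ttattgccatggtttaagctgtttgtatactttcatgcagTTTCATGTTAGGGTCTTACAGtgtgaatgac
PSMD2, chr3:184301807-184301867, plus strand: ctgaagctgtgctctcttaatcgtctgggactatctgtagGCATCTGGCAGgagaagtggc
The PSMA3 run holds a further AG used as a 3′ site between both ends. One cassette exon of PSMA4, 70 bp long, is shown because its level had the largest negative difference among cassette exons whose WT and MT libraries did not overlap. Capitals mark the exon, which is preceded by AG and followed by GT.
PSMA4, chr15:78542556-78542665, plus strand: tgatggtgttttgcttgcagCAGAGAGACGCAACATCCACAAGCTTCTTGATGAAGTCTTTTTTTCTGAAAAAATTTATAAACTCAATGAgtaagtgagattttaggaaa

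Of the 439 events, 50 had a level of 1.0 in all 6 libraries and could not differ, and 389 were tested. Tested proteasome events had a median of 294.9 junction reads, with 288.7 in WT and 289.7 in MT. The median over all 83581 events tested in the whole table was 82.4 reads, with 81.7 in WT and 82.7 in MT. Libraries differed in how often an exon was seen as fully included. Of 225 tested cassette exons of proteasome genes, 134, 105 and 130 were at a level of 1.0 in the WT libraries and 128, 96 and 122 in the MT libraries, so MT 2 had the fewest, followed by WT 2. Over all 55825 tested cassette exons these shares were 51.6%, 48.6% and 53.9% in the WT libraries, and in MT 1, MT 2 and MT 3 they were 52.7%, 45.7% and 41.1%, so MT 3 had the fewest there. The labels give no batch. Of 48 known subunit, activator, inhibitor and chaperone genes looked for, 41 had an event with at least 10 reads. PSMA8, PSMB8, PSMB9, PSMB11, PSMD5 and PSMG3 had no event in the table, and PSMG2 had events below the read minimum only.

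No proteasome event was called as changed between WT and MT. Calls required an adjusted p under 0.05 by limma with Benjamini-Hochberg adjustment over all 83581 events and a difference in inclusion level above 0.1. Among 389 proteasome events, 0 met both limits, and 26 of all events did, a share of 0.0311%. The lowest adjusted p of a proteasome event by limma was 0.595. At this background 0 calls among 389 events is not a result about proteasome genes.

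Before adjustment, 14 proteasome events (3.60%) had a limma p under 0.05, and 4.47% of all events did. Of these 14, 3 had a higher level in MT and 11 a lower one. Over all events 1277 were higher and 2461 lower at this limit. The 3 WT and 3 MT levels did not overlap in 6 proteasome events that were higher in MT (1.54%, against 2.32% of all events) and in 12 that were lower (3.08%, against 3.15%). All of these shares were near or below the background.

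Differences in proteasome genes were small. Differences ranged from −0.190 to 0.133, with a median of −0.000333 and a median size of 0.005, and over all events the median was −0.002 and the median size 0.0137. In 4 of the 389 events (1.03%) the difference was larger than 0.1, compared with 5.82% of all events. The 95% interval of the difference, from limma on the untransformed level, lay within 0.1 to each side in 315 proteasome events (81.0%) and in 62.3% of all events. In the other 74 events the precision did not set such a limit. The events of proteasome genes also had more reads and a smaller spread between libraries of a genotype, with a median SD of 0.00857 against 0.0243, and the part of read number in these shares was not tested. Events are not independent of each other: apart from mutually exclusive exons, 314 tested events used 231 distinct junctions for the shorter form, and 61 junctions were shared by 144 events.

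**Figure D1:**
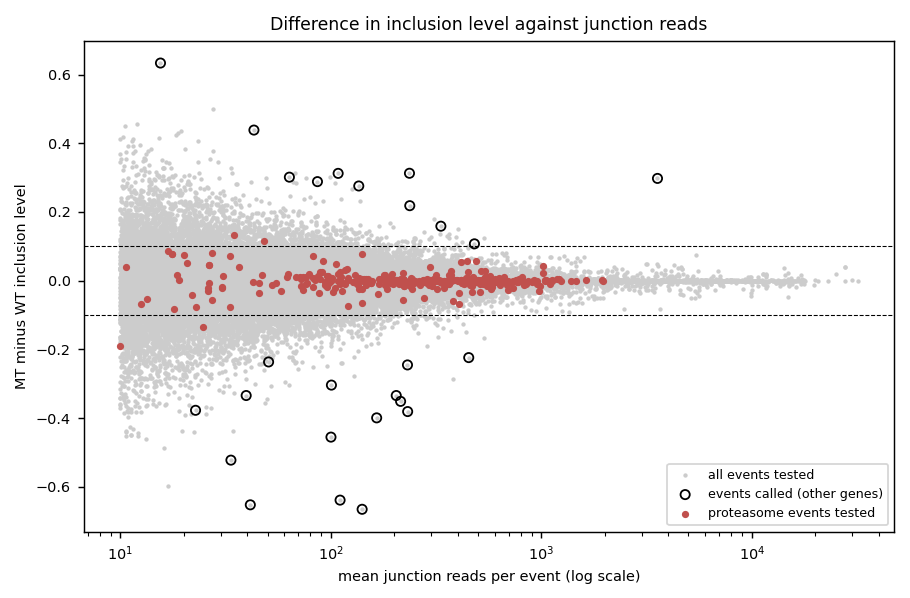
Difference in inclusion level (MT minus WT, y axis) against the mean junction reads of each event (x axis, log scale). Grey points are all 83581 events tested, red points the 389 proteasome events and open circles the 26 called events, and dashed lines mark 0.1 to each side. Proteasome events lie between −0.190 and 0.133, and none is circled.

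In the alpha ring, which gates entry into the core, 52 of 56 events in 7 genes were tested, with differences from −0.0567 to 0.0577. The lowest p in this ring belonged to PSMA4. The inclusion level of the 70 bp exon shown above, chr15:78542576-78542645, was 0.989, 0.993 and 0.993 in WT compared with 0.977, 0.885 and 0.943 in MT. All 3 MT libraries were below all 3 WT libraries, and MT 2 was the lowest. The difference was −0.0567, with a 95% interval from −0.116 to 0.00276, a limma p of 0.00317 and a Benjamini-Hochberg adjusted p of 0.650. By a two-sided exact permutation test p was 0.1, the smallest that 3 against 3 libraries allow. Without MT 2 the difference was −0.0317. MT 2 also had the fewest fully included cassette exons of proteasome genes, though not of all genes, and the part of this in the result was not tested.

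The 3 PSMA4 events with a p under 0.05 are repeated readouts of 1 junction, and the lowest p, 0.00235, belonged to the longest of them. A 163 bp form of the same exon, with the same end, had levels of 0.995, 0.997 and 0.997 in WT against 0.99, 0.957 and 0.971 in MT, a difference of −0.0237. An alternative 5′ site event of 426 bp had 0.99, 0.994 and 0.994 in WT versus 0.980, 0.898 and 0.946 in MT, a difference of −0.0513. It ends where the 70 bp and 163 bp exons end and shares their downstream junction. Its level therefore also counts reads of those exons. In each case the shorter form was the junction that skips this region, with an authors' mean of 1.0 reads in WT and 9.5 reads in MT. The reference annotation (GENCODE 44) holds both forms of all of these events, and the 70 bp and 163 bp exons are not a multiple of 3 long. Of 18 tested PSMA4 events, the other 15 had a p above 0.05.

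PSMA7 illustrates how completely most exons of the ring were included: its most deeply covered exon, 63 bp long, had a level of 1.0 in all 6 libraries with a mean of 1145.7 reads. PSMA5 had 7 tested events, all with differences between −0.0123 and 0.004. PSMA6 had 4, of which the alternative 3′ site shown above had a p under 0.05 and is described with the other close sites.

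In the beta ring, which holds the proteolytic subunits PSMB5, PSMB6 and PSMB7, 40 of 42 events in 8 genes were tested. Reads were highest here, with a median of 675.6 reads per event, and the 95% interval lay within 0.1 to each side in 38 events. PSMB4, a structural subunit of the ring, gave the lowest p of all proteasome events. A retained-intron event over its 650 bp region at chr1:151400589-151401238 had levels of 0.978, 0.963 and 0.957 in WT versus 1.0 in every MT library. The groups did not overlap, and the difference was 0.034, with an interval from 0.0156 to 0.0524, a limma p of 0.00225 and a Benjamini-Hochberg adjusted p of 0.595. An 82 bp exon inside this region, read against the same skipping junction, had 0.999, 0.997 and 0.995 in WT versus 1.0 in all of MT. The authors' mean of inclusion reads for this exon was 1619.0 in WT and 1645.0 in MT, against 125.3 and 109.8 for retention. The 650 bp event sets retention against skipping of the whole region only, so 1.0 does not mean retention in all transcripts. The authors' mean of skipping reads was 2.33 in WT and 0.667 in MT. The MT mean covers all 6 listed values, so skipping reads were present among listed MT values that have no column. The neighbouring 117 bp exon of PSMB4 had the most reads of any proteasome event, 1957.75, and levels between 0.997 and 1.0 in all 6 libraries.

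The proteolytic subunits themselves varied little. Differences ran from −0.00267 to −0.000667 over 2 tested events of PSMB5, from −0.00333 to 0.0117 over 4 of PSMB6 and from −0.026 to 0.007 over 8 of PSMB7, and none had a p under 0.05. PSMB10, an inducible protease of the immunoproteasome, had 3 events with at most 86.8 reads, and the largest difference of the beta ring, −0.0773, was in this gene.

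**Figure D2:**
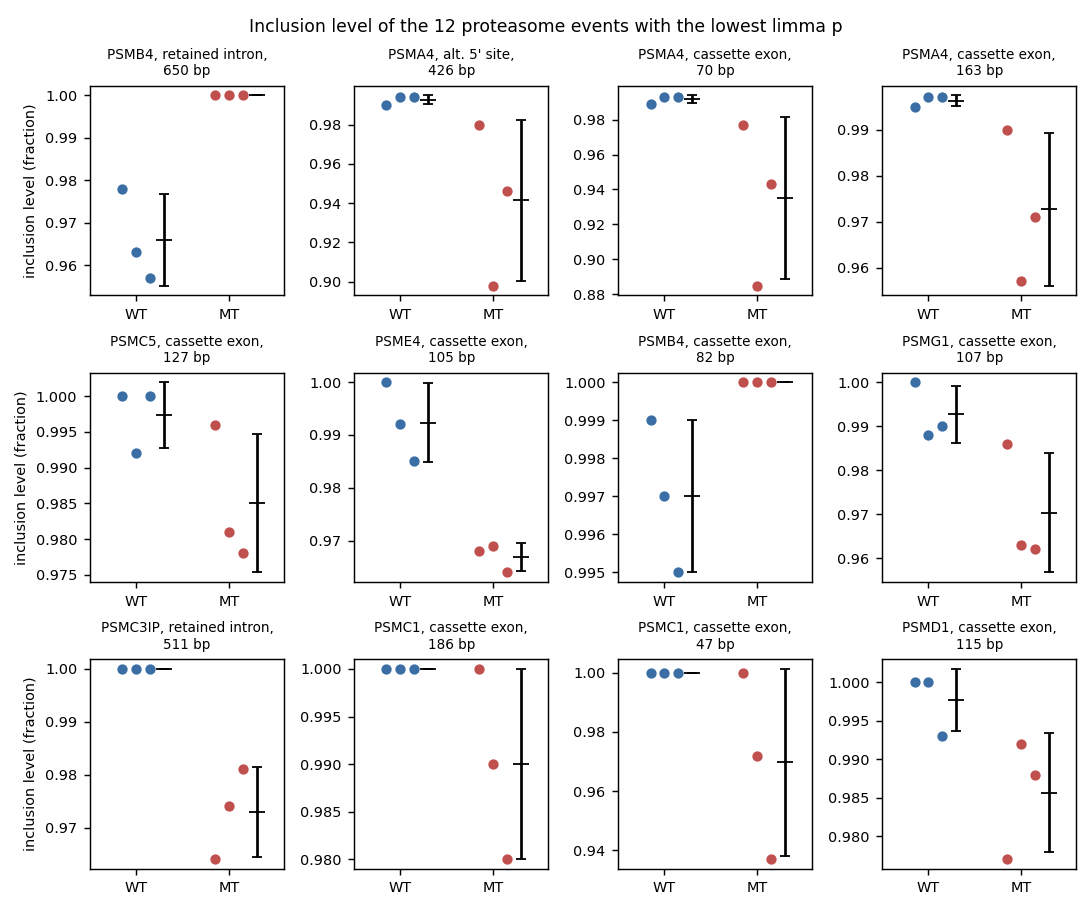
Inclusion level in each library (y axis, fraction, a separate scale in each panel) for the 12 proteasome events with the lowest limma p. Blue points are the 3 WT and red points the 3 MT libraries, and bars give the mean and SD of each genotype. Levels are at least 0.885 in every panel, MT is higher in both PSMB4 panels and lower in the other 10, and the 3 PSMA4 panels share 1 skipping junction.

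In the ring of 19S ATPases, the motor that unfolds substrates, 44 of 52 events in 6 genes were tested, with differences from −0.034 to 0.0853. A 127 bp exon of PSMC5 at chr17:63830809-63830935 had levels of 1.0, 0.992 and 1.0 in WT compared with 0.996, 0.981 and 0.978 in MT. The groups overlapped, with a difference of −0.0123, a limma p of 0.0122 (Benjamini-Hochberg adjusted p of 0.856) and an exact permutation p of 0.2. Skipping reads of this exon were few, with authors' means of 1.0 in WT and 3.83 in MT. In PSMC1, a 186 bp exon had 1.0 in all of WT and 1.0, 0.99 and 0.980 in MT. A 47 bp part of that exon, read against the same junction, had 1.0 in all of WT and 1.0, 0.972 and 0.937 in MT. MT 1 was at the level of WT in both of these, and without MT 3 the differences of −0.01 and −0.0303 were −0.005 and −0.014. Both had authors' means of skipping reads of 0 in WT and 2.0 in MT. PSMC2 held an event listed as a pair of mutually exclusive exons. Its levels were 0.384, 0.402 and 0.412 in WT against 0.371, 0.365 and 0.360 in MT. Here the groups did not overlap and the difference of −0.034 had an interval from −0.0538 to −0.0142, but the limma p on the transformed level was 0.252. Neither form of this pair is in the annotation. Read as cassette exons, the first was at 1.0 in all 6 libraries and the second between 0.997 and 1.0. The level of the pair therefore compares junction reads of exons that were nearly always both included. The largest difference among the ATPases, 0.0853, was in PSMC5 at an exon covered by only 16.9 reads.

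The non-ATPase subunits of the cap comprise scaffolds, ubiquitin receptors and the deubiquitinase PSMD14. Members were grouped here by PSMD symbol, which does not show that each is part of the finished cap. This group held the most events, of which 154 of 169 in 13 genes were tested. Of these, 1 had a limma p under 0.05, in the scaffold subunit PSMD1. That exon, 115 bp at chr2:231138736-231138850, had levels of 1.0, 1.0 and 0.993 in WT versus 0.977, 0.992 and 0.988 in MT. The groups lay just apart, with a difference of −0.012, a limma p of 0.0381 and a Benjamini-Hochberg adjusted p of 0.856. Without MT 1 the difference was −0.00767. Skipping reads averaged only 0.333 in WT and 1.33 in MT by the authors' means. Another event of the same exon, with 141.2 reads, went the other way. It had 1.0, 1.0 and 0.986 in WT and 1.0 in every MT library, a difference of 0.00467 with a limma p of 0.454. PSMD2, the other large scaffold, held an event listed as a pair of mutually exclusive exons. Its levels were 0.691, 0.710 and 0.713 in WT compared with 0.672, 0.643 and 0.689 in MT. The groups again lay just apart, and the difference was −0.0367 with an interval from −0.0701 to −0.00319, but the limma p on the transformed level was 0.242. Without MT 2 the difference was −0.0242. Both forms of this PSMD2 pair are absent from the annotation. PSMD14 had 2 tested events with differences of −0.002 and −0.000667.

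PSMD4, a ubiquitin receptor, had 52 events, more than any other proteasome gene, and 49 were tested. Its most deeply covered exon, 87 bp long with 1384.6 reads, had a level of 1.0 in 5 libraries and 0.999 in MT 3. A rare mutually exclusive form had a level of 0 in all WT libraries and 0.057, 0.047 and 0.033 in MT. All MT libraries were above WT, with a difference of 0.0457 and an interval from 0.0045 to 0.0868, but the event had 26.3 reads and the authors' mean of reads for this form was 0.833 in MT. The largest difference of any proteasome event, −0.190, was also in PSMD4, at an alternative 3′ site 304 bp upstream. It was chosen after its values were seen. Its levels were 1.0 in all libraries except MT 2, at 0.429, and at a mean of 10 reads the interval ran from −0.614 to 0.233, so the difference rested on 1 library.

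The activators are alternative caps that open the core without ATP, and 64 of their 79 events in 4 genes were tested. In PSME4, which encodes a single-chain nuclear activator, a 105 bp exon on the minus strand at chr2:53890104-53890208 had levels of 1.0, 0.992 and 0.985 in WT against 0.968, 0.969 and 0.964 in MT. All MT libraries were lower, and they lay closer together than WT. This rested on few skipping reads, with authors' means of 1.0 in WT and 2.33 in MT. The difference was −0.0253, with an interval from −0.0379 to −0.0128, a limma p of 0.0146 and a Benjamini-Hochberg adjusted p of 0.856. Skipping of this exon is absent from the annotation and the exon is a multiple of 3 long.

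PSME2, a subunit of an interferon-inducible activator ring, had 2 retained introns with higher levels in MT. The 435 bp intron at chr14:24145773-24146207, minus strand, had 0.137, 0.107 and 0.135 in WT versus 0.140, 0.167 and 0.243 in MT. The lowest MT library lay barely above the highest of WT, and the difference of 0.057 had an interval from −0.0153 to 0.129 and was 0.0272 without MT 3. The 244 bp intron at chr14:24145466-24145709 had 0.043, 0.051 and 0.032 in WT compared with 0.067, 0.077 and 0.056 in MT, with a difference of 0.0247 and an interval from 0.0025 to 0.0469. Limma p-values were 0.224 and 0.329. The median retained-intron level over all genes was 0.167, 0.172 and 0.250 in WT against 0.161, 0.176 and 0.227 in MT, so it varied between libraries of the same genotype by more than between genotypes.

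Other PSME2 events in the same region, chosen after their values were seen, did not separate the genotypes. An alternative 3′ site of 124 bp that shares its junction with the 435 bp intron had 0.096, 0.057 and 0.038 in WT versus 0.140, 0.079 and 0.191 in MT. Its difference was 0.073, with an interval from −0.0088 to 0.155 and a limma p of 0.0799. Retention of a 311 bp part of the intron had 0.630, 1.0 and 1.0 in WT compared with 0.600, 0.929 and 0.700 in MT, at 24.7 reads. That difference was −0.134, lower in MT, with an interval from −0.480 to 0.213 and a limma p of 0.0641. Both differences were larger in size than those of the 435 bp and 244 bp introns. PSME3, a nuclear activator subunit, was covered more deeply, and its leading exon with 767.4 reads had 0.997, 0.994 and 1.0 in WT versus 1.0 in all of MT.

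The inhibitor PSMF1, a binding partner of the core, had 7 events, of which 5 were tested with differences from −0.01 to 0.00533. Its 83 bp exon with 624.8 reads had levels of 0.989, 0.983 and 1.0 in WT against 0.977, 0.991 and 0.997 in MT, which overlapped. The chaperones that assemble the alpha ring were represented by PSMG1 and PSMG4, with 8 of 9 events tested. In PSMG1, a 107 bp exon at chr21:39181772-39181878, minus strand, had 1.0, 0.988 and 0.99 in WT versus 0.986, 0.963 and 0.962 in MT. The groups lay just apart, with a difference of −0.0223, an interval from −0.0422 to −0.00245, a limma p of 0.0172 and a Benjamini-Hochberg adjusted p of 0.856. Here too skipping reads were few, with authors' means of 1.33 in WT and 3.17 in MT. Another exon of PSMG1, 63 bp long, is skipped in part in both genotypes, with 0.869, 0.866 and 0.916 in WT compared with 0.916, 0.873 and 0.908 in MT.

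Symbols that match the rule without being subunits gave 25 events, of which 22 were tested: the antisense RNA PSMA3-AS1, PSMC3IP, which encodes a meiotic recombination protein, and PSMG3-AS1. Whether the splice analysis used the strand of the reads is not given in the sources used here. A 511 bp retained intron of PSMC3IP had 1.0 in all of WT and 0.964, 0.974 and 0.981 in MT, with a difference of −0.027, an interval from −0.0478 to −0.00624 and a limma p of 0.0204 (Benjamini-Hochberg adjusted p of 0.856). This level sets retention against the junction over the whole 511 bp only, so 1.0 does not mean retention in all transcripts. Authors' means of reads for that junction were 0 in WT and 1.33 in MT, against 71.0 and 74.7 for retention. Differences above 0.1 occurred for 1 exon of PSMA3-AS1 read with different downstream exons. Its levels ran from 0.143 to 0.548 in WT and from 0.455 to 0.636 in MT in one reading and from 0.204 to 0.375 and from 0.179 to 0.584 in the other, so the groups overlapped in both. The differences of 0.133 and 0.114 were 0 without WT 1 and 0.0183 without MT 1. Without these symbols, 367 events were tested, 12 had a p under 0.05 and 0 were called by limma.

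**Figure D3:**
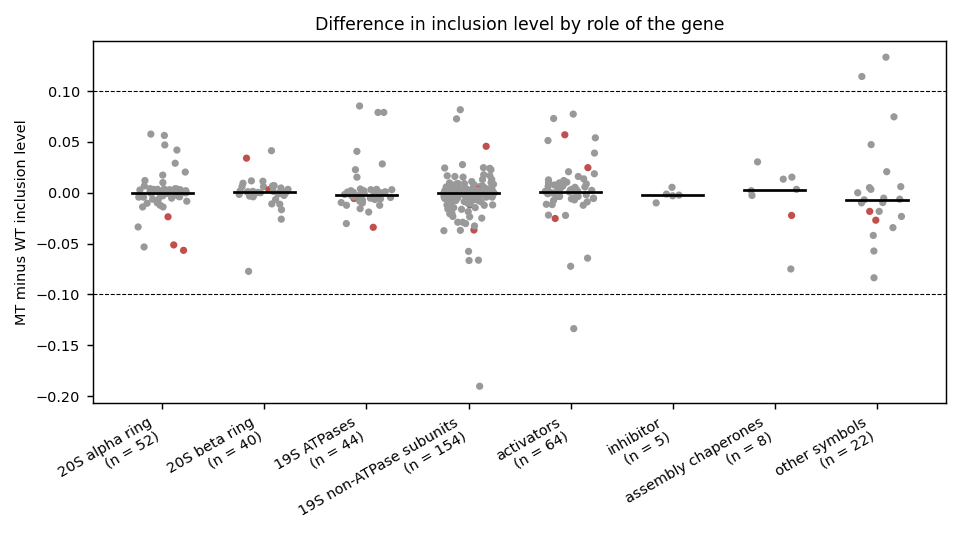
Difference in inclusion level (MT minus WT, y axis) of the 389 tested proteasome events by the role of the gene (x axis, n events tested). Black lines are medians, dashed lines mark 0.1 to each side and red points are events whose WT and MT libraries do not overlap. The red points lie between −0.0567 and 0.057, and the 4 points outside 0.1 are grey.

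Alternative 3′ sites 10 to 30 bp apart were examined separately, since their sequences are those shown above. They made up 7 of 37 tested alternative 3′ events of proteasome genes (18.9%), against 997 of 5351 over all genes (18.6%). Across all genes 4 of these 997 events were called by limma, all 4 of them rising in MT, 88 had a p under 0.05 and 547 had a higher level in MT. Of the 7 proteasome events 0 were called by limma, 1 had a p under 0.05 and 4 had a higher level in MT.

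PSMA6 was the one with a p under 0.05. Its upstream site, 18 bp from the regular site, had levels of 0, 0 and 0.015 in WT against 0.028, 0.007 and 0.032 in MT. The groups overlapped, since MT 2 lay below WT 3. Reads of the upstream site were few, with authors' means of 1.0 in WT and 3.17 in MT. The difference was 0.0173, with an interval from −0.00486 to 0.0395, a limma p of 0.0482, a Benjamini-Hochberg adjusted p of 0.856 and an exact permutation p of 0.2. The 25 bases before its upstream AG held 44% A, the most of the 7, compared with a median of 20% over all 997 events and over the 4 called ones. Pyrimidines made up 87.5% of the bases between both sites of PSMA6, with medians of 72.7% over all 997 and 84.9% over the called events.

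The other 6 pairs showed no separation of the genotypes. PSMC5, with sites 16 bp apart and 40% A before the upstream site, had 0.016, 0.035 and 0.038 in WT versus 0.027, 0.026 and 0.014 in MT. PSMB10, 23 bp, had 0.063, 0.029 and 0.042 in WT compared with 0.021, 0.029 and 0.050 in MT. In PSMA3 and PSMD2 the upstream site was the regular one. The 21 bp pair of PSMA3 had 0.992, 1.0 and 0.980 in WT against 1.0, 0.99 and 0.992 in MT, and the 11 bp pair of PSMD2 had 0.997, 0.998 and 0.993 in WT versus 0.992, 1.0 and 1.0 in MT. The inner site of PSMA3, 11 bp downstream of the first, had levels of the upstream site of 0.997 in MT 2 and 0.992 in MT 3 and 1.0 in the other 4 libraries. Read against the last site, 10 bp further, the level varied from 0.752 to 1.0 in WT and from 0.884 to 1.0 in MT with 26.5 reads. All 7 pairs have AG at both sites, as do 978 of the 997 over all genes.

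**Figure D4:**
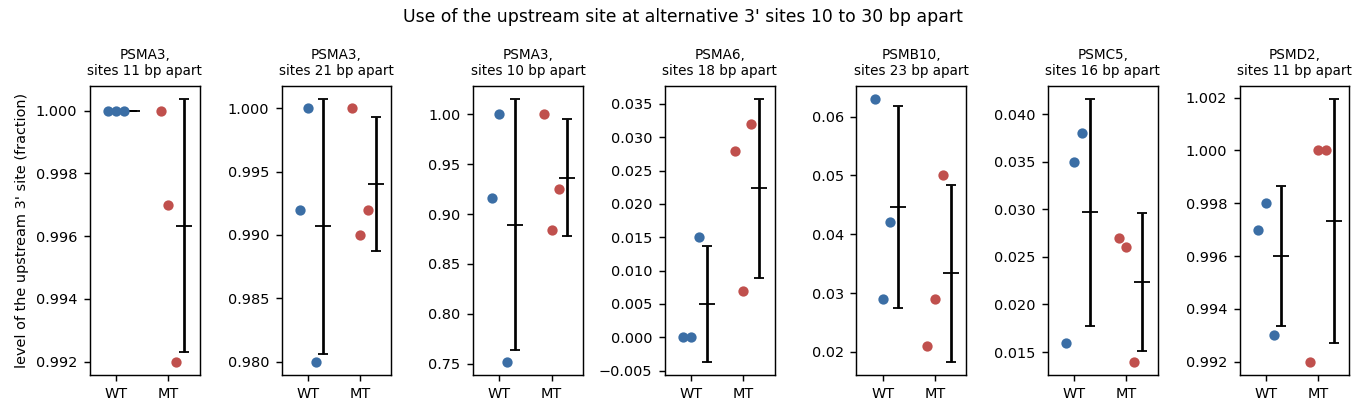
Level of the upstream 3′ site (y axis, fraction, a separate scale in each panel) for the 7 proteasome events with sites 10 to 30 bp apart. Blue points are the 3 WT and red points the 3 MT libraries, and bars give the mean and SD. The levels of WT and MT do not separate in any panel, and PSMA6 has levels up to 0.015 in WT and up to 0.032 in MT.

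Most proteasome events described forms that were nearly always or nearly never made relative to the other form of the event. The mean level was at least 0.9 in 242 of 389 events (62.2%), at most 0.1 in 60 (15.4%) and between these in 87 (22.4%, against 27.1% of all events). Of the 87, 55 were mutually exclusive exons, a type in which both forms were annotated in only 5 of 75 proteasome events. Among cassette exons 15 of 225 lay between 0.1 and 0.9. Both forms were annotated in 150 of the 389 events (38.6%, against 38.0% of all). The segment overlapped coding sequence in 352 (90.5%, against 86.5%), and its length was a multiple of 3 in 168 (43.2%, against 39.7%).

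Apart from mutually exclusive exons, 3 events of proteasome genes with at least 100 reads had annotated forms at mean levels between 0.1 and 0.9 in both genotypes, a choice made after their values were seen. Besides the 63 bp exon of PSMG1, a 117 bp exon of the chaperone PSMG4 at chr6:3264209-3264325 had levels of 0.219, 0.209 and 0.238 in WT compared with 0.206, 0.225 and 0.326 in MT. A 139 bp intron of the ATPase PSMC4 was retained at 0.109, 0.098 and 0.128 in WT against 0.059, 0.103 and 0.175 in MT. WT and MT overlapped in both, and the limma p-values were 0.555 and 0.899.

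Genes that act with the proteasome were counted by the same fit. A list of 25 symbols of assembly factors, ubiquitin receptors and shuttles, associated enzymes and regulators of proteasome genes gave 193 tested events in 22 genes, with 2 called, both higher in MT, beside a share of 0.0311% called over all events. A p under 0.05 was found in 15 (7.77%, against 4.47% over all events), of which 5 were higher and 10 lower. Both calls were readouts of 1 skipping junction in UBQLN1, a shuttle that carries ubiquitinated proteins to the proteasome. Its 84 bp exon at chr9:83666350-83666433, minus strand, had 0.838, 0.855 and 0.849 in WT compared with 0.963, 0.978 and 0.923 in MT, with a difference of 0.107 and a Benjamini-Hochberg adjusted limma p of 0.0352. An alternative 5′ site that ends at the same position had 0.672, 0.694 and 0.695 in WT against 0.932, 0.950 and 0.834 in MT, with a difference of 0.218 and a Benjamini-Hochberg adjusted limma p of 0.0134. Both have the same authors' means of skipping reads, 36.3 in WT and 20.8 in MT. Neither was called without WT 1, WT 2, WT 3, MT 1 or MT 2, and 1 call was left without MT 3. Neither was called with a logit, without the variance trend, on untransformed levels or with at least 3 distinct levels required.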

How the data were processed

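RNA-Seq of 3 WT and 3 MT HEK293T samples was used, grouped by the labels. According to Methods, libraries were made with a stranded kit and splicing was analysed with the rMATS model, and the submitters' processing notes name STAR and StringTie. The deposited inclusion levels are fractions with 3 decimals, and the authors also gave mean junction reads of each group. Columns of the authors' own comparison, p-values, adjusted p-values and level differences, were not used, nor were 6 list columns of values per library, of which the 6 MT values are not matched to samples. A count test was therefore not run, and the inclusion levels were tested instead. Library totals were not analysed here, and junction reads per event stand for depth. DRIP-seq peak lists were not used.

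Events with a level in all 6 libraries, at least 10 mean reads and levels that varied (83581) were transformed (arcsine of the root of the inclusion level) and fitted in R 4.3.3 by limma 3.58.1, with a variance trend on log mean reads and Benjamini-Hochberg adjustment over all of them. The procedure was tested on simulated data. Calls needed an adjusted p under 0.05 and a difference above 0.1. Intervals (95%) come from the same fit on untransformed levels, an alternative chosen after seeing the data. Alternatives were a logit, no trend, other read minimums, at least 3 distinct levels, a difference above 0.05 and each library left out. Exact permutation tests were two-sided.

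Segments were matched to GENCODE 44 on hg38. Starts in the table count from 0: 80894 of 80999 cassette exons were annotated exons when 1 was added to the start, and 251 as given. The sequences were read from hg38. Described are the 12 proteasome events with the lowest p, the 10 largest differences among those with separated groups, the event with the most reads in each role, close alternative 3′ sites and called events, besides events said to be chosen after their values were seen and those that give the range of a gene. The members, role lists and pathway list were chosen with earlier results of these data known.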

Additional observations from a re-analysis of the deposited data

How the results depend on the processing

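The count of proteasome events called was 0 under every alternative run, and 7 to 25 of them had an unadjusted p under 0.05. The count over all events was 26 and depended on the fit: it was 0 with a logit, 0 without a variance trend, 0 on untransformed levels, 12 with at least 3 distinct levels required, and 3 to 13 when 1 library was left out. The 2 pathway calls became 0 with a logit, 0 without the trend, 0 on untransformed levels and 0 with at least 3 distinct levels, and 0 to 1 when 1 library was left out. The cause was not tested. Separated groups numbered 18, and 18 to 19 under other read minimums. Of 448 values of 38 described proteasome events, 439 kept their direction and their side of the threshold. With 1 library left out the sign turned in 6 events: differences ranged from −0.002 to 0.008 at the 21 bp pair of PSMA3 and from −0.0217 to 0.102 at its 10 bp pair, from −0.000167 to 0.004 at the close sites of PSMD2 and from −0.00667 to 0.00333 in PSMF1, which was 0.00233 without WT 3, from −0.0307 to 0.0273 in PSMC4 and from −0.0065 to 0.0535 at the 117 bp exon of PSMG4. Of the 389 intervals, 74 reached beyond 0.1, and among mutually exclusive exons 43 of 75 stayed within it. No paired analysis was possible because the MT columns carry no replicate number.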
